A study of Arabidopsis thaliana with 24 samples.

Results

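Seedlings of 2 ferrochelatase mutants of Arabidopsis, fc1 and fc2, were compared after 120 min of light. The comparison used 2 arrays of fc1 and 2 arrays of fc2, so 4 of the 24 arrays of the study, and all 22217 probe sets of the deposited log2 table. The arrays were grouped by their labels, while the comparison and the gene lists were picked with earlier results of these data known. The fc1 seedlings carried the fc1-1 allele and the fc2 seedlings the fc2-1 allele, both in the Col-0 ecotype. Whole 4 day old seedlings had been stratified as seeds for 4 days at 4 °C, had germinated after a 2 h light pulse and were raised without light at 22 °C for 4 days before they were lit at 120 µmol m-2 s-1. The study also holds arrays of the same mutants in the dark and after 30 min of light, and arrays of the wild type (wt) and of flu, which lacks a protein that restrains tetrapyrrole synthesis in the dark, with 2 arrays per genotype and time. The labels call the arrays of a group biological replicates and say nothing more of their origin, so p-values measure only how these arrays scatter. Precision is limited by having 2 arrays per group.

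Ferrochelatase inserts iron into protoporphyrin IX and so makes haem, on the branch of tetrapyrrole synthesis that competes with the chlorophyll branch for protoporphyrin IX. Arabidopsis has a pair of ferrochelatase genes. FC2 is expressed mainly in green tissue and serves the haem of the photosynthetic apparatus, whereas FC1 is expressed more widely, roots included. When a dark-grown seedling first meets light it de-etiolates: it stops elongating and builds thylakoids, and free porphyrins that are lit at this stage can pass energy to oxygen and form singlet oxygen. No probe set named FC1, FC2 or FLU alone, so the level of the mutated genes is not given.

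Median log2 signals of the 24 arrays ranged over 5.98 to 6.23, and replicates of a group correlated across probe sets at 0.9907 to 0.9986. Differences are given as fc1 minus fc2 on the log2 scale ± SE from a limma fit over all arrays, so a positive value is higher in fc1. A probe set was called at a Benjamini-Hochberg adjusted p under 0.05 over all 22217 probe sets. Genes named by size were the largest calls among probe sets that name exactly 1 gene and whose fc1 and fc2 arrays did not overlap. Their separation was set by that choice. Detection calls were not used, and of the 30 genes named by size at 120 min 7 had an array in the lowest 25% of its array (log2 under 3.95 to 4.0), so their differences may understate the change. In whole seedlings, fewer cells of a type and less RNA per cell cannot be told apart.

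At 120 min fc1 and fc2 differed at a large share of the array. Of 22217 probe sets 6074 were called, which is 27.3%, with 2976 higher in fc1 (13.4%) and 3098 lower in fc1 (13.9%). The median difference over all probe sets was -0.01. Among the calls 894 reached a 2-fold difference, and here the directions were uneven, with 613 higher and 281 lower in fc1. Probe sets that name exactly 1 gene made up 3168 of the calls and 430 of the calls of at least 2-fold. The number called depended on which arrays were kept. It was 3835 without fc1 replicate 2, 3906 without fc2 replicate 2, and 3355 without the array of each mutant that had more seed-maturation transcript.

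The same comparison gave fewer calls before light. In the dark 309 probe sets were called (1.39%), with 125 higher and 184 lower in fc1, and after 30 min 1513 were called (6.81%), with 686 higher and 827 lower. The dark count was 49 to 85 with 1 of its 4 arrays left out, and the 30 min count 453 to 594. The replicate block lowered them to 263 and 1396, while some other fits raised both. Array weights gave 3713 in the dark and 4046 at 30 min, beside 6877 at 120 min, and only the arrays of fc1 and fc2 gave 1598 and 3661, beside 7928. Scaling each array to the reference genes AT4G34270 and AT2G28390 moved the median of all probe sets to -0.21 in the dark and -0.1 at 30 min, and 4.2% in place of 40.5% of the dark calls and 34.8% in place of 45.3% of the 30 min calls were then higher in fc1. At 120 min that scaling moved the median to 0.01, and 57.6% in place of 49.0% of the calls were higher in fc1.

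**Figure D1:**
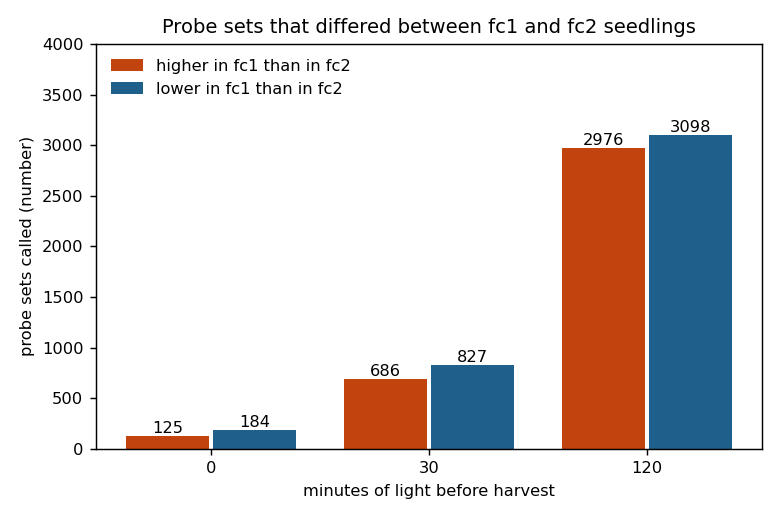
Probe sets called between fc1 and fc2 at 0, 30 and 120 min of light (horizontal axis, minutes). The vertical axis counts probe sets at an adjusted p under 0.05, with the left bar of each pair for those higher in fc1 and the right bar for those lower in fc1. The bars stand at 125 and 184, at 686 and 827, and at 2976 and 3098.

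Whether the difference itself had changed with light was tested as a difference of light responses. From the dark to 120 min the responses of fc1 and fc2 differed at 3602 probe sets (16.2%), 1806 with a more positive response in fc1 and 1796 with a more negative one. From 30 to 120 min they differed at 2664 probe sets (12.0%), 1477 and 1187 in those directions. Scaled to the reference genes, 83.3% in place of 50.1% of the calls from 0 to 120 min and 76.1% in place of 55.4% of those from 30 to 120 min were more positive in fc1, with the median of all probe sets at 0.22 and 0.1.

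Among the genes named by size, the largest differences at 120 min were lower in fc1, and small heat-shock protein genes led them. These proteins bind unfolding proteins and keep them from aggregating. AT1G52560, of the small heat-shock list, had log2 signals of 3.65 and 4.20 in fc1, against 8.22 and 8.11 in fc2. The difference was -4.24 ± 0.22 (SE, n = 2 arrays each; limma adjusted p = 3.73e-10). In wt it was at 3.47 and 3.83, close to the fc1 arrays, and 1 fc1 array lay in the lowest 25% of its signals, so no fold is given. ATHSP22.0, an endoplasmic reticulum small heat-shock protein, stood at 5.99 and 6.08 in fc1, against 10.19 and 10.19 in fc2, a difference of -4.15 ± 0.14 (limma adjusted p = 6.71e-12). AT5G37670 stood at 6.79 and 6.78 in fc1, against 10.43 and 10.76 in fc2, a difference of -3.81 ± 0.19. The fc1 level was lowest for AT1G52560 and stood above the lowest 25% of signals for ATHSP22.0 and AT5G37670.

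Of the 10 small heat-shock probe sets measured, out of 18 listed genes, 7 were lower and 1 was higher in fc1, with a median of -2.27, beside 13.9% lower, 13.4% higher and a median of -0.01 over all probe sets. AT2G29500 (-2.64 ± 0.25), AT1G54050 (-2.52 ± 0.24), AT1G53540 (-2.02 ± 0.20) and AT2G19310 (-0.84 ± 0.13) were the other lower members. Set against wt, fc1 was higher by 2.80 ± 0.20 for AT1G53540 and 1.36 ± 0.24 for AT1G54050, while AT2G29500 was not called (0.60 ± 0.25). AT2G19310 was at 9.14 and 9.28 in fc1 and at 9.07 and 9.31 in wt. AT4G21870 was the member that was higher, at 9.91 and 9.94 in fc1, against 9.03 and 8.97 in fc2 (0.93 ± 0.15, limma adjusted p = 0.000166). AT5G51440 and AT5G47600 were not called, at -0.22 ± 0.30 and -0.04 ± 0.13. Mean levels of the list were 7.45 and 7.65 in fc1, 9.50 and 9.51 in fc2, and 6.75 and 6.83 in wt. With any 1 of the 4 arrays left out, 7 members were lower.

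A second list, of other heat-shock genes and chaperones, had 4 measured genes. Limma called 0 of these 4, beside 27.3% of all probe sets, and so few genes cannot tell these shares apart. An unadjusted p under 0.05 was reached by 0 of the 4 genes. Their differences were -0.54 ± 0.27 for Fes1A, -0.48 ± 0.25 for AT2G20560, -0.52 ± 0.39 for AT5G48570 and 0.19 ± 0.40 for Hop3. A fit of the 4 compared arrays alone called 2 of them lower in fc1. Both mutants were above wt for Fes1A, a nucleotide exchange factor of cytosolic chaperones, at 9.63 and 9.61 in fc1 and 10.28 and 10.04 in fc2, with 8.42 and 8.17 in wt.

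AT1G71000, a gene on neither chaperone list, was at 4.82 and 4.89 in fc1, against 8.54 and 8.59 in fc2, a difference of -3.71 ± 0.16 (limma adjusted p = 5.75e-11). A search for names of heat shock factors and DnaJ co-chaperones matched 0 probe sets. The lists therefore do not show whether AT1G71000 is a chaperone gene. AT1G76640, which encodes calmodulin-like protein CML39, was at 3.91 and 4.01 in fc1, against 6.52 and 7.17 in fc2 (-2.88 ± 0.23). UGT76E12, a UDP-glycosyltransferase, was at 5.17 and 4.90 in fc1, against 7.19 and 8.17 in fc2 (-2.64 ± 0.26). AT1G76640 had an fc1 array in the lowest 25% of its signals. SWEET4, a sugar transporter, was at 4.54 and 4.60 in fc1, against 6.62 and 6.74 in fc2 (-2.11 ± 0.29). The others of the 15 lowest differences among the genes named by size lay between -2.66 and -2.16. They were AT1G22810, AT4G28703, AT1G44414, AT5G35940, AT3G29970 and AT2G34020, which carry only locus identifiers in the tables.

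The 15 differences higher in fc1 among the genes named by size ranged up to 3.47. AT5G42760 was at 10.11 and 10.26 in fc1, against 6.69 and 6.74 in fc2, a difference of 3.47 ± 0.14 (limma adjusted p = 3.49e-11) or 11.1-fold. AT2G27420 was at 6.49 and 7.34 in fc1, against 3.45 and 3.58 in fc2 (3.40 ± 0.23). UGT78D1, which adds rhamnose to flavonols, was at 7.94 and 8.40 in fc1, against 5.60 and 5.93 in fc2 (2.41 ± 0.23). IQD24, a member of the calmodulin-binding IQ-domain proteins, was at 7.17 and 7.48 in fc1, against 4.97 and 5.10 in fc2 (2.29 ± 0.14). The fc2 arrays of AT2G27420 lay in the lowest 25% of their signals. AT1G76110 (2.87), AT1G60590 (2.65), AT1G55960 (2.61), AT3G05730 (2.58), AT4G15660 (2.56), AT4G24700 (2.47), AT4G12830 (2.41), AT5G47330 (2.33), AT2G30540 (2.31) and AT1G15290 (2.28) have no symbol in the tables.

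AT1G26380 was the gene among these 15 whose fc1 level stood farthest from wt. It was at 6.74 and 7.06 in fc1, against 3.95 and 4.04 in fc2, with 4.23 and 4.01 in wt and 4.21 and 4.45 in flu. Its fc1 arrays were the high ones among the 8 arrays at 120 min. The difference between the mutants was 2.91 ± 0.17 (limma adjusted p = 2.38e-09). Set against wt, it was 2.78 ± 0.17 in fc1 and -0.12 ± 0.17 in fc2. For AT5G42760 the same values against wt were 0.26 ± 0.14 in fc1 and -3.21 ± 0.14 in fc2, and for AT1G52560 they were 0.28 ± 0.22 in fc1 and 4.52 ± 0.22 in fc2. These comparisons with wt share arrays with the comparison of the mutants and are given side by side only.

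**Figure D2:**
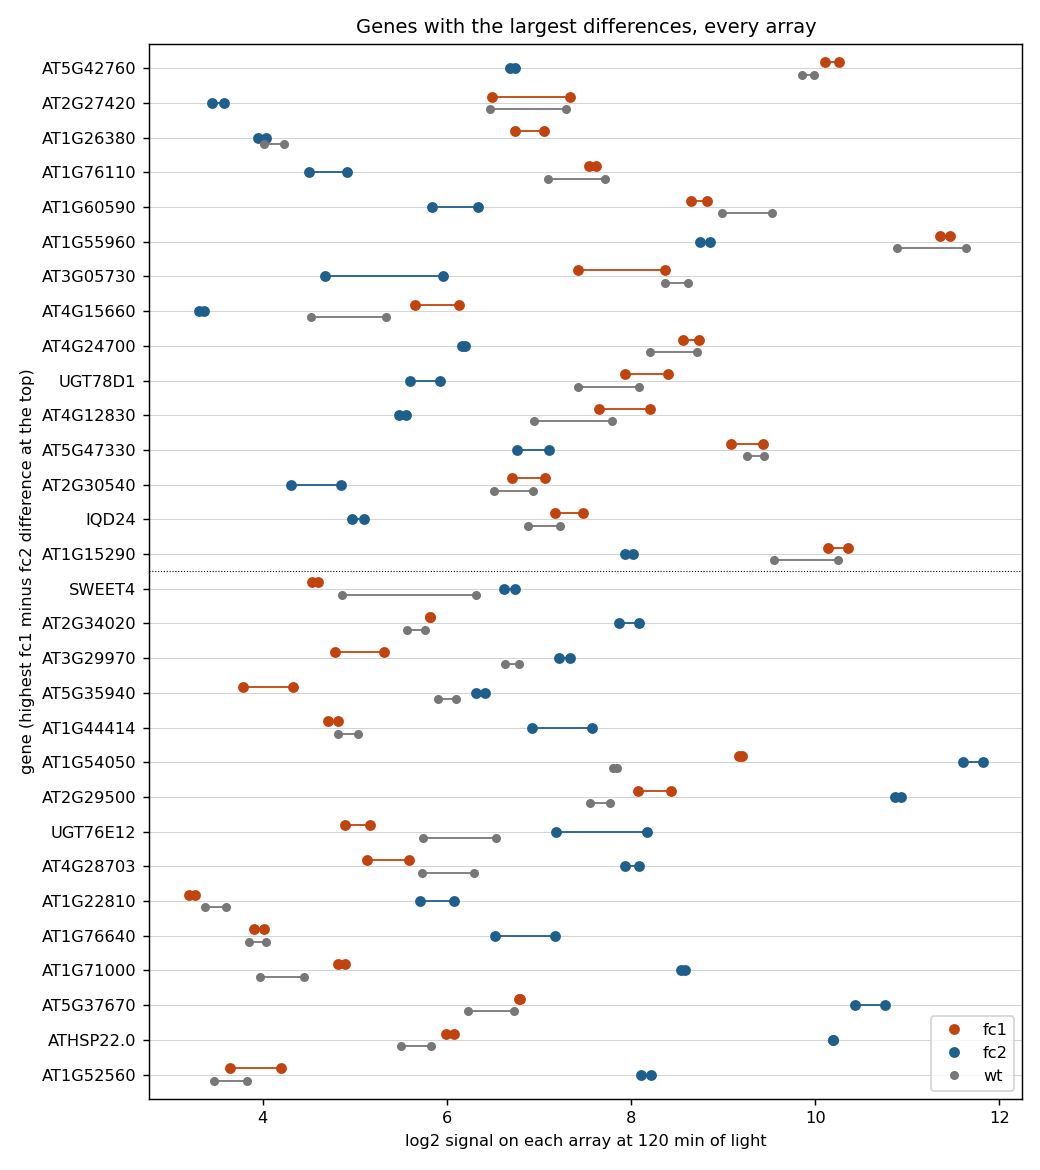
Log2 signal on every array at 120 min (horizontal axis) for the 30 genes named by size (vertical axis, highest fc1 minus fc2 difference at the top). Each point is 1 array, a line joins the 2 arrays of a group, and fc1 is drawn above fc2 and wt within a row. The wt arrays lie near the fc1 arrays for most of these genes, such as AT5G42760, and nearer the fc2 arrays for AT1G26380, AT5G35940 and AT3G29970. In some rows, such as UGT76E12 and SWEET4, the wt arrays lie between those of fc1 and fc2.

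Photosynthesis genes were higher in fc1. Of 9 measured probe sets of the photosystem, electron transport and Calvin cycle list 7 were higher and 0 lower in fc1, with a median of 0.89, beside 13.4% higher over all probe sets. Without the seed-richer array of each mutant 6 were higher. CaS, the thylakoid calcium sensor, was at 11.03 and 11.38 in fc1, against 9.78 and 9.60 in fc2, a difference of 1.52 ± 0.12 (limma adjusted p = 8.28e-08). PRK, the Calvin cycle kinase that makes ribulose bisphosphate, was at 12.07 and 12.39 in fc1, against 11.12 and 10.85 in fc2 (1.25 ± 0.17). SBPASE (1.17 ± 0.16), another Calvin cycle enzyme, PSBY (1.04 ± 0.15) and PSAN (0.57 ± 0.11), photosystem subunits, TROL (0.89 ± 0.22), a thylakoid anchor, and RCA (0.84 ± 0.10), rubisco activase, were the other members called. PSBW and PSAE-1 were not called, at 0.39 ± 0.15 and 0.07 ± 0.18. The mean over the list was 12.08 and 12.20 in fc1, 11.27 and 11.30 in fc2, and 12.19 and 11.99 in wt.

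Of 20 listed light-harvesting genes 3 were measured, and these encode the minor antenna protein CP29. All 3 were higher in fc1, beside 13.4% over all probe sets. LHCB4.3 was at 9.24 and 9.38 in fc1, against 7.94 and 8.06 in fc2 (1.31 ± 0.11, limma adjusted p = 1.25e-07). LHCB4.1 was at 12.82 and 12.98 in fc1, against 12.41 and 12.25 in fc2 (0.57 ± 0.12). LHCB4.2 differed by 0.59 ± 0.18 (limma adjusted p = 0.0213), and its adjusted p was 0.0507 to 0.129 with 1 of the 4 arrays left out, so that 2 of the 3 were called in those fits.

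Within tetrapyrrole synthesis itself 5 of 12 measured probe sets were higher in fc1 and 1 was lower, beside 13.4% and 13.9% over all probe sets, with a median of 0.24. The early steps included GSA1, which makes 5-aminolevulinic acid, at 9.37 and 9.56 in fc1 and 8.97 and 9.09 in fc2 (0.44 ± 0.10). The uroporphyrinogen decarboxylases HEME2 and HEME1 were higher in fc1 by 1.01 ± 0.13 and 0.76 ± 0.14. HEME2 was at 10.42 and 10.41 in fc1, against 9.41 and 9.41 in fc2, with 10.26 and 9.92 in wt. On the chlorophyll branch, CHLI2, a magnesium chelatase subunit, was higher by 0.89 ± 0.14 and CHLM, a methyltransferase of the following step, by 0.55 ± 0.08.

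PORB moved the other way. It encodes a protochlorophyllide oxidoreductase, the enzyme that needs light to make chlorophyllide. PORB was at 11.11 and 11.32 in fc1, against 12.35 and 12.31 in fc2, with 10.61 and 10.88 in wt (-1.11 ± 0.13, limma adjusted p = 6.77e-06). In the dark it was at 13.06 and 13.0 in fc1, against 13.10 and 13.10 in fc2, and its change by 120 min was -1.81 ± 0.13 in fc1 and -0.77 ± 0.13 in fc2. The responses differed by -1.04 ± 0.19 (limma adjusted p = 0.000752). HEMB1, hemb2, hemf2, HEMA2, HEMA3 and AT1G74470 were not called and lay between -0.27 and 0.27.

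All 6 measured flavonoid genes were higher in fc1, beside 13.4% over all probe sets, with a median of 1.13. They were UGT78D1, UF3GT (1.52 ± 0.24), CHIL (1.38 ± 0.12), UGT78D2 (0.89 ± 0.13), DFR (0.86 ± 0.28) and AT4G14090 (0.84 ± 0.18). CHIL, a chalcone isomerase-like protein, was at 9.86 and 9.94 in fc1, against 8.51 and 8.54 in fc2, with 10.10 and 10.14 in wt. UF3GT, an anthocyanin glycosyltransferase, was at 6.97 and 7.38 in fc1, against 5.59 and 5.72 in fc2. DFR, the dihydroflavonol reductase that leads to anthocyanins, was at 4.16 and 4.75 in fc1, against 3.56 and 3.64 in fc2, and its adjusted p was 0.0193 to 0.302 with 1 array left out. HYH, a light-signalling factor, was higher by 0.83 ± 0.20 and the clock gene GI by 0.53 ± 0.11, while FHL was not called (-0.05 ± 0.25). Neither HYH nor GI was called without the seed-richer array of each mutant (limma adjusted p = 0.058 and 0.114), and HYH was at 0.0503 without fc1 replicate 2.

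Autophagy genes were lower in fc1 by small amounts. Of 10 measured probe sets 9 were lower and 0 higher, beside 13.9% lower over all probe sets, with a median of -0.55, and the 9 were ATG8 genes, whose products coat the autophagosome membrane. APG8H was at 10.28 and 10.09 in fc1, against 10.92 and 10.86 in fc2 (-0.70 ± 0.09, limma adjusted p = 1.99e-05). APG8A was at 9.61 and 9.57 in fc1, against 10.24 and 10.24 in fc2 (-0.65 ± 0.10). ATG8D (-0.60 ± 0.10), ATG8B (-0.65 ± 0.12), ATG8G (-0.56 ± 0.12) and ATG8C (-0.55 ± 0.12) followed. The fc1 and fc2 arrays did not overlap for 9 of the 10 probe sets. With 2 arrays per group such separation was frequent, and it also held for 13 of 24 cytochromes P450. The share over all probe sets was not counted, so the 9 are not read as a result about autophagy genes. ATG3, the enzyme that conjugates ATG8 to lipid, was not called (0.05 ± 0.13). Limma called 0 of the 10 in the dark and 0 at 30 min, beside 1.39% and 6.81% of all probe sets. So few genes cannot tell these shares apart. An unadjusted p under 0.05 was reached by 0 in the dark and 3 at 30 min. The responses from 0 to 120 min and from 30 to 120 min were each more negative in fc1 for 9 of the 10. Over all probe sets these responses differed, in either direction, at 16.2% and 12.0%. With 1 array left out 7 or 8 of the 10 were called lower, and without the seed-richer array of each mutant 7 were, with ATG8B at an adjusted p of 0.0531.

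Redox and detoxification genes were lower in fc1 where they were called, at 3 of 5 measured, beside 13.9% over all probe sets. GRX480, a glutaredoxin of the salicylate response, was at 7.09 and 6.93 in fc1, against 8.90 and 9.26 in fc2, with 6.12 and 6.29 in wt and 9.94 and 10.20 in flu (-2.07 ± 0.19, limma adjusted p = 2.93e-07). GSTU25, a glutathione transferase, was at 7.65 and 7.80 in fc1, against 9.15 and 9.20 in fc2 (-1.45 ± 0.19). AT2G21640 of the same list differed by -1.43 ± 0.16. MSRB6, a methionine sulfoxide reductase, and NDB2, a mitochondrial NADH dehydrogenase, were not called (0.47 ± 0.19 and -0.22 ± 0.11). Of 12 glutathione transferases found by name 5 were lower and 1, GSTU18 (0.99 ± 0.11), was higher (50.0% called, beside 27.3%), with a median of -0.23, and 3 or 4 were lower with 1 array left out.

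Markers known to respond to singlet oxygen did not go one way. AT5G64870 was at 7.94 and 7.80 in fc1, against 5.60 and 5.89 in fc2, with 6.03 and 6.38 in wt and 8.31 and 8.50 in flu (2.13 ± 0.14, limma adjusted p = 7.46e-09). The fc1 and flu arrays were the high ones here. AT3G28580 was near the bottom of the scale at 3.11 and 3.19 in fc1, against 2.73 and 2.81 in fc2 (0.38 ± 0.10). STZ, a zinc-finger repressor of stress responses, was lower in fc1, at 9.32 and 8.92, against 9.66 and 9.89 in fc2 (-0.65 ± 0.21). With 1 array left out the highest adjusted p was 0.075 for AT3G28580 and 0.25 for STZ.

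Calcium-related genes also split. Of 9 measured 3 were higher and 1, AT1G76640, was lower in fc1, with a median of 0.19. That is 44.4% called, beside 27.3% over all probe sets, and with 1 array left out 1 or 2 were higher. AT3G01830 was at 6.67 and 6.28 in fc1, against 4.48 and 4.37 in fc2, with 3.93 and 4.22 in wt (2.05 ± 0.25, limma adjusted p = 7.51e-06). CML41 (0.86 ± 0.24) and CML42 (0.34 ± 0.11) were the other calls, and they reached adjusted p of 0.297 and 0.121 with 1 array left out. CML37 (0.46 ± 0.19) and CML38 (-0.45 ± 0.19) were not called.

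Auxin and elongation genes were lower in fc1 at 4 of 6 and higher at 1, beside 13.9% and 13.4% over all probe sets. EXO, which promotes leaf growth, was at 9.57 and 9.56 in fc1, against 10.93 and 10.93 in fc2, with 9.93 and 9.82 in wt (-1.36 ± 0.10, limma adjusted p = 2.89e-08). WES1 (-0.74 ± 0.11) and GH3.3 (-0.84 ± 0.21), enzymes that conjugate auxin, and EXPA8 (-0.55 ± 0.12), an expansin, were the other lower members. GH3.3 and EXPA8 reached adjusted p of 0.0613 and 0.0596 with 1 array left out, and only 2 of the 4 lower members were then called without fc2 replicate 2. WAG2, a kinase of auxin transport, was higher at 6.38 and 6.74 in fc1, against 5.49 and 5.24 in fc2 (1.20 ± 0.19), and IAA29 was not called (0.04 ± 0.16). Of 29 expansin and xyloglucan enzyme probe sets 3 were higher and 6 lower, with a median of -0.07. The share called, 31.0%, was near the 27.3% over all probe sets, and 3 to 5 were lower with 1 array left out and 2 without the seed-richer arrays. XTH18 was at 9.11 and 9.45 in fc1, against 7.19 and 7.58 in fc2 (1.90 ± 0.18).

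**Figure D3:**
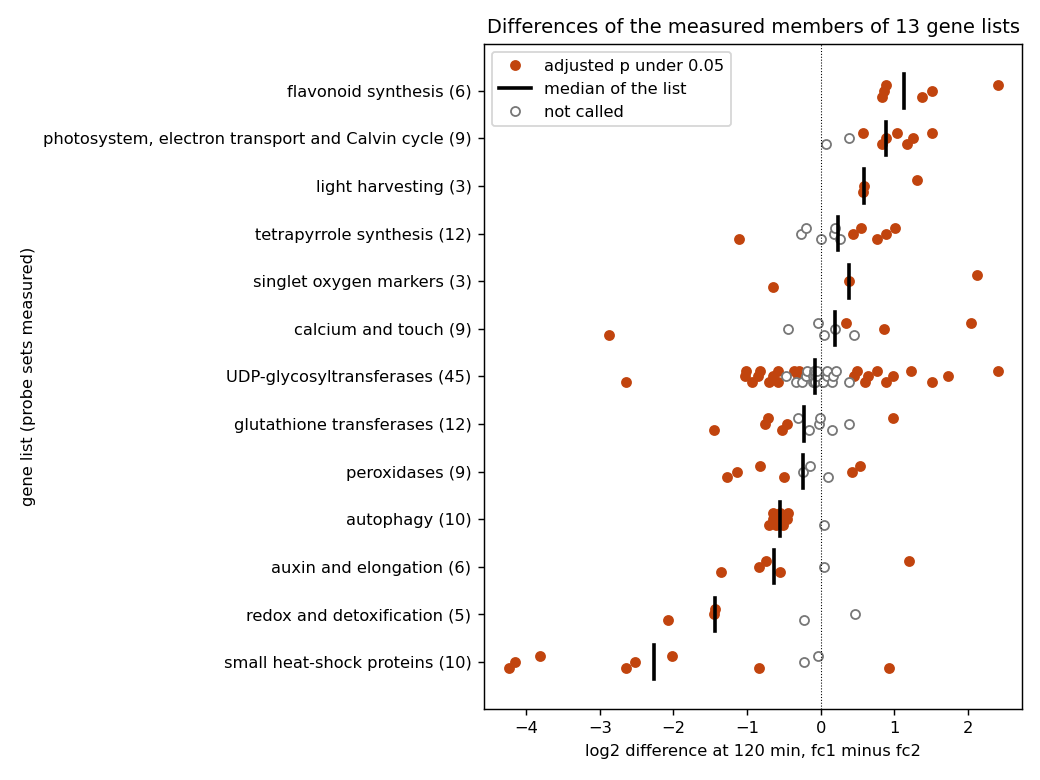
Log2 differences at 120 min, fc1 minus fc2 (horizontal axis), of each measured member of 13 gene lists (vertical axis, with the number of probe sets measured). Filled points were called at an adjusted p under 0.05, open points were not, and the black bar is the median of the list. The flavonoid points all lie right of 0, the autophagy calls all lie left of 0, and small heat-shock points reach -4.24.

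Gene families, here and for glutathione transferases and expansins above, were found by words in gene symbols and synonyms. Members without such a name were missed, so counts and shares cover only the matched probe sets. UDP-glycosyltransferases, the family with the most matched probe sets, were called in both directions, as were all probe sets. Of 45 probe sets 11 were higher and 13 lower in fc1 (53.3% called, beside 27.3%), with a median of -0.08. UGT76E11 was at 8.19 and 8.08 in fc1, against 6.30 and 6.51 in fc2 (1.73 ± 0.12), while UGT76E12 of the same subfamily was the lowest of the family, as given above. UGT71B1 was higher (1.23 ± 0.14), and UGT72E1 (-1.01 ± 0.10) and GT72B1 (-0.70 ± 0.10) were lower. Of 9 peroxidases 2 were higher and 4 lower, beside 13.4% and 13.9% over all probe sets, and 2 were lower without the seed-richer arrays, where AT5G64120 and PRXR1 had limma adjusted p of 0.0865 and 0.0628. The higher ones, TAPX (0.53 ± 0.11) and SAPX (0.42 ± 0.11), are the thylakoid and stromal ascorbate peroxidases, and AT5G66390 (-1.27 ± 0.10) led the lower ones. SAPX reached an adjusted p of 0.114 without fc1 replicate 2.

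Of 24 cytochromes P450 1 was higher (CYP71B6, 0.53 ± 0.10) and 1 lower (CYP71B29, -0.56 ± 0.12), which is 8.33% called, beside 27.3% over all probe sets. For 11 of the 24 all 4 arrays lay in the lowest 25% of their signals. Of 7 WRKY transcription factors 2 were higher and 1 lower in fc1 (42.9% called, beside 27.3%), and 0 to 2 were higher with 1 array left out. WRKY22 was at 5.27 and 4.95 in fc1, against 6.99 and 6.96 in fc2, with 5.40 and 5.29 in wt (-1.86 ± 0.15, limma adjusted p = 1.05e-07). WRKY53 (0.67 ± 0.19), also on the salicylate list, and WRKY20 (0.52 ± 0.18) were the higher ones, with adjusted p up to 0.156 and 0.282 when 1 array was left out. Of 4 pectin enzymes 2 were lower, PMEPCRF (-0.54 ± 0.13) and PME61 (-0.66 ± 0.22), beside 13.9% lower over all probe sets. PME61 lost its call in 3 of the 4 fits with 1 array left out.

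Small hormone and nutrient lists held few measured genes. Limma called 0 of 2 jasmonate, 0 of 1 ethylene and 0 of 2 iron genes, beside 27.3% of all probe sets, and so few genes cannot tell these shares apart. Of these 5 genes, 0 had an unadjusted p under 0.05 (JMT 0.07 ± 0.14, PDF1.2 -0.02 ± 0.11, EIN3 0.02 ± 0.15, PYE -0.29 ± 0.17 and BHLH101 -0.18 ± 0.16). COR15B, a cold-induced gene, was lower in fc1 by -0.97 ± 0.23, with an adjusted p of up to 0.0995 when 1 array was left out, and COR15A and COR47 were not called. The salicylate list held SAG101 (0.37 ± 0.14, not called) beside WRKY53. Neither reference gene was called, at -0.08 ± 0.09 for AT4G34270 and 0.04 ± 0.10 for AT2G28390.

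The tissue was checked with marker lists. Seedlings of both mutants had high photosystem and light-harvesting signals, as given above. The measured root genes EXPA7 (-0.33 ± 0.19) and EXPA18 (-0.35 ± 0.22) were not called, with mean levels of 4.77 and 4.80 in fc1 and 5.01 and 5.25 in fc2. The 5 measured seed-maturation genes had mean levels of 8.26 and 6.32 in fc1, 7.42 and 8.35 in fc2, and 6.50 and 8.59 in wt. The replicates therefore differed from each other as much as the groups, and the mutants overlapped. M17 showed this most, at 7.99 and 2.92 in fc1 and 5.30 and 6.66 in fc2. OLEO3 was the member called (-0.37 ± 0.12, limma adjusted p = 0.0318), and with 1 array left out its adjusted p was 0.0803 to 0.156. In the dark the list averaged 8.16 and 8.23 in fc1, against 5.96 and 5.94 in fc2, with 8.20 and 7.44 in wt, so that the fc2 arrays were the low ones and did not overlap the fc1 arrays. The part of these transcripts in the dark comparison was not tested beyond the fit with the list mean as a covariate, which called 160 probe sets in the dark and 5741 at 120 min.

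The courses of single genes differed in when fc1 and fc2 parted. AT1G52560 was at 3.23 and 3.07 in fc1, against 3.09 and 3.09 in fc2 in the dark, and at 3.27 and 3.21 in fc1, against 4.04 and 3.95 in fc2 at 30 min. The mutants overlapped in the dark, were apart by -0.75 ± 0.22 at 30 min (limma adjusted p = 0.0434) and by -4.24 at 120 min. ATHSP22.0 differed by 0.31 ± 0.14, -1.21 ± 0.14 and -4.15 ± 0.14 at the 3 times. AT1G71000 parted later, with differences of -0.11 ± 0.16 in the dark and -0.14 ± 0.16 at 30 min.

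Among genes higher in fc1, AT5G42760 was already apart at 30 min, at 6.19 and 6.28 in fc1, against 4.15 and 4.11 in fc2 (2.11 ± 0.14). AT2G27420 was not, at 3.34 and 3.22 in fc1, against 3.24 and 3.30 in fc2 (0.01 ± 0.23). AT1G26380 was at 4.22 and 4.76 in fc1, against 3.50 and 3.80 in fc2 at 30 min (0.84 ± 0.17, limma adjusted p = 0.00693). AT3G01830 was also apart at 30 min, by 2.80 ± 0.25, with 5.96 and 6.41 in fc1, against 3.49 and 3.29 in fc2. EXO differed by -1.84 ± 0.10 at 30 min, and the difference was smaller at 120 min by 0.48 ± 0.14 (limma adjusted p = 0.0377). AT2G32140 (2.59), AT1G35210 (2.40) and DLAH (2.29), an acylhydrolase gene, were higher in fc1 at 30 min and still higher by 0.85 ± 0.17, 1.00 ± 0.16 and 1.54 ± 0.18 at 120 min.

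Some genes changed sides. CaS was at 9.50 and 9.53 in fc1, against 10.52 and 10.53 in fc2 in the dark (-1.01 ± 0.12, limma adjusted p = 0.00027), and its response to 120 min was 1.69 ± 0.12 in fc1 and -0.83 ± 0.12 in fc2. CHIL was at 6.38 and 6.24 in fc1, against 7.64 and 7.53 in fc2 in the dark, a difference of -1.27 ± 0.12, and differed by 0.0 ± 0.12 at 30 min. RR16, a response regulator of cytokinin signalling, was at 4.09 and 4.61 in fc1, against 6.53 and 6.38 in fc2 in the dark (-2.10 ± 0.17), and at 6.38 and 5.92 in fc1, against 5.20 and 5.39 in fc2 at 120 min (0.86 ± 0.17, limma adjusted p = 0.00122). AT5G48490 turned from -1.53 in the dark and -1.55 at 30 min to 0.61 ± 0.15 at 120 min, and AT5G02890 from -1.29 ± 0.16 at 30 min to 1.49 ± 0.16. The adjusted p of AT5G48490 was 0.0608 without fc2 replicate 1.

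**Figure D4:**
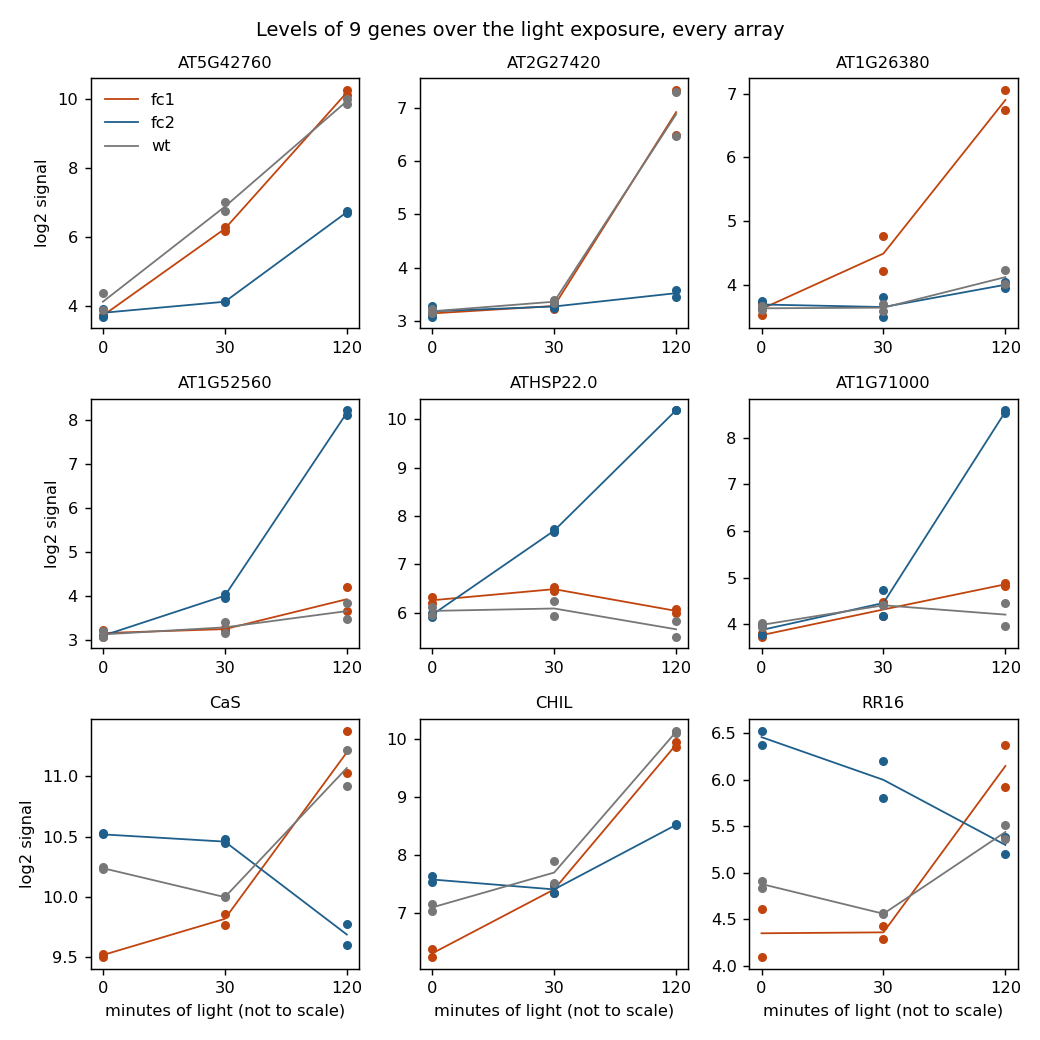
Log2 signal (vertical axis, a scale of its own in each panel) of 9 genes at 0, 30 and 120 min of light (horizontal axis, minutes, not to scale) in fc1, fc2 and wt. Each point is 1 array and the lines join group means. AT5G42760 and AT2G27420 end higher in fc1 than in fc2, the 3 genes of the middle row end higher in fc2, and CaS, CHIL and RR16 cross.

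The 3 times used different arrays but came from 1 fit, which gives each probe set the same variance at every time, so their calls are not independent. Of the 309 probe sets called in the dark 185 (59.9%) were also called at 120 min, beside 27.3% of all probe sets, and they were 3.05% of the 6074 called there. Of these 185 only 67 went the same way and 118 went the opposite way, with 91 lower in fc1 in the dark and higher at 120 min and 27 the reverse. Of the 1513 called at 30 min 855 (56.5%) were called at 120 min (14.1% of those), 703 in the same direction and 152 in the opposite one. Between the dark and 30 min 164 were shared (53.1% of the dark calls and 10.8% of the 30 min calls), 155 in the same direction and 9 opposite. The seed-maturation list mean, low in the dark fc2 arrays, moved with the dark comparison, and with it as a covariate 95 probe sets were shared between the dark and 120 min, 39 in the same direction and 56 opposite. With only the arrays of fc1 and fc2 in the fit the shared number was 895, with 489 in the same direction and 406 opposite. Array weights gave 1590, with 804 in the same direction and 786 opposite, so in these fits the opposite direction did not prevail. It did prevail with scaling to the reference genes, without the dimmest 40% of probe sets, with trend and robust variances and with the replicate block.

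A set of 107 probe sets was called at all 3 times, and 52 of them kept 1 direction, 22 higher and 30 lower in fc1. AT5G35940 was at 3.79 and 4.33 in fc1, against 6.42 and 6.32 in fc2 at 120 min, with 6.10 and 5.90 in wt, and its differences were -1.92 ± 0.16, -2.21 ± 0.16 and -2.31 ± 0.16 at 0, 30 and 120 min. AT3G29970 differed by -1.75 ± 0.22, -1.75 ± 0.22 and -2.22 ± 0.22, and AT5G15360 by -1.37 ± 0.20, -1.45 ± 0.20 and -1.51 ± 0.20. AT2G44970 was at 8.86 and 8.83 in fc1, against 7.00 and 7.25 in fc2 at 120 min, with 7.09 and 6.57 in wt, and its differences were 2.19 ± 0.16, 1.76 ± 0.16 and 1.72 ± 0.16. AT4G07820 was at 9.23 and 9.34 in fc1, against 7.47 and 7.70 in fc2, with 9.11 and 9.02 in wt, so here the fc2 arrays were the ones away from wt (2.66 ± 0.21, 2.36 ± 0.21 and 1.70 ± 0.21). For none of AT5G35940, AT3G29970, AT5G15360 and AT2G44970 did the light responses of fc1 and fc2 from 0 to 120 min pass the test.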

How the data were processed

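The deposited values are log2 signals from Affymetrix arrays that the authors made with RMA, per the submitters' processing notes. The RMA version is not given in the sources used here, and the values were used as deposited. Names came from the platform table and the TAIR10.1 gene table: 13171 probe sets had 1 gene, 482 several and 8564 none, and only the first were named. In limma 3.58.1 under R 4.3.3, lmFit took all 24 arrays with a mean for each group, and eBayes gave two-sided tests and Benjamini-Hochberg adjustment; the fit was tested on simulated data. Python 3.11.15, pandas 2.3.3 and matplotlib 3.10.9 made the figures and tables. Genes named are the 15 largest calls in each direction at 120 min whose arrays did not overlap, the 5 largest for each other contrast, and up to 6 list members with the smallest p. ATG3, TROL, PSBW, PSAE-1, AT2G19310, AT4G21870, AT5G51440, AT5G47600 and the uncalled tetrapyrrole genes were added to complete lists. The comparison and the lists were chosen with earlier results of these data known. Same-numbered arrays of fc1 and fc2 deviated together at correlations of -0.015 in the dark, 0.209 at 30 min and -0.131 at 120 min, so the numbers were not taken as pairs. Alternatives were scaling to reference genes, leaving out the dimmest 40% of probe sets, trend and robust variances, smaller sets of arrays, array weights, the replicate block, a seed-maturation covariate and leaving out arrays.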

Additional observations from a re-analysis of the deposited data

Results flagged for a closer look

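Light responses differed between fc1 and fc2 by a test of the difference itself (limma, adjusted over all 22217 probe sets) at the genes given here, the 5 largest in each direction for each interval. All values are the fc1 response minus the fc2 response on the log2 scale. From 0 to 120 min the more positive responses in fc1 were those of AT3G05730 (3.59 ± 0.51 SE), AT5G42760 (3.55 ± 0.20), AT2G27420 (3.44 ± 0.32), AT1G76110 (3.20 ± 0.26) and AT1G26380 (2.98 ± 0.25). The response of AT3G05730 was -1.07 ± 0.36 in fc1 and -4.65 ± 0.36 in fc2, and that of AT5G42760 was 6.46 ± 0.14 in fc1 and 2.91 ± 0.14 in fc2. The more negative responses in fc1 were those of ATHSP22.0 (-4.46 ± 0.20), AT1G52560 (-4.30 ± 0.31), AT5G37670 (-4.17 ± 0.27), AT1G71000 (-3.59 ± 0.23) and UGT76E12 (-2.75 ± 0.37).

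From 30 to 120 min the more positive responses in fc1 were those of AT2G27420 (3.39 ± 0.32), AT1G76110 (3.20 ± 0.26), AT5G02890 (2.79 ± 0.22), AT2G30540 (2.60 ± 0.28) and RR16 (2.50 ± 0.25). The more negative ones were those of AT1G71000 (-3.56 ± 0.23), AT1G52560 (-3.48 ± 0.31), AT5G37670 (-3.06 ± 0.27), ATHSP22.0 (-2.94 ± 0.20) and AT1G05575 (-2.63 ± 0.30). AT1G05575 was at 7.78 and 7.60 in fc1, against 9.70 and 9.84 in fc2 at 120 min, and the mutants were not apart by the test at 30 min (0.56 ± 0.21, limma adjusted p = 0.125).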

How the results depend on the processing

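The 120 min count of 6074 was 3835 to 5027 with 1 of the 4 arrays left out, and the lone array of a group was then assumed to vary like the other groups. It was 3355 without the seed-richer array of each mutant, a choice made after seeing the data, and 5198 to 7928 under the other alternatives that kept all 4 arrays. The replicate block gave 5893 at 120 min, 263 in the dark, 1396 at 30 min, 3455 for the responses from 0 to 120 min and 2583 from 30 to 120 min, and a crossed replicate block, added later, gave 5917. In the dark the count of 309 was 1094 after scaling to the reference genes, 491 without the dimmest 40% of probe sets, 512 with trend and robust variances, 1598 with only the arrays of fc1 and fc2, 3713 with array weights, 160 with the seed-maturation covariate and 49 to 85 with 1 array left out. The 30 min count of 1513 was 3661 with only the arrays of fc1 and fc2, 4046 with array weights and 453 to 594 with 1 array left out. For the responses from 0 to 120 min array weights gave 5415, against 3602. For those from 30 to 120 min, 2664 calls became 4290 with only the arrays of fc1 and fc2, 4000 with array weights and 1698 to 2366 with 1 array left out. The cause of these shifts was not tested, except that leaving out arrays leaves fewer samples. Over all 156 genes named by rule and every contrast, 84 of 2651 values lost their call, 27 gained one and 0 called values reversed. Arrays hold only relative signals with 2 arrays a group, and AT1G52560, AT1G76640, AT1G22810 and AT5G35940 in fc1, AT2G27420, AT1G26380, AT4G15660, AT2G32140, AT1G35210, DFR and WRKY53 in fc2, and AT3G28580 in both had an array in the lowest 25% of its signals at 120 min.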

Other observations

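Probe sets that the platform table names after mitochondrial genes split between the mutants at 120 min, a set looked at after values were seen. nad6 was at 4.58 and 4.37 in fc1, against 5.77 and 6.54 in fc2 (-1.68 ± 0.35 SE, limma adjusted p = 0.0016). nad5 was at 5.97 and 5.54 in fc1, against 6.85 and 6.84 in fc2 (-1.09 ± 0.30), and ccb452 at 6.76 and 6.41 in fc1, against 7.59 and 7.79 in fc2 (-1.10 ± 0.15). The fc1 and fc2 arrays did not overlap for these 3, and also not for ccb382, ccb203 and orfX, so this does not set the 3 apart. Over all probe sets 27.3% were called by limma, and the share without overlap was not counted. ccb382 was higher in fc1 by 0.60 ± 0.19, and ccb203, matR and orfX were not called, at -0.33 ± 0.14, -0.17 ± 0.21 and -0.19 ± 0.18. Of the 7, the calls from 0 to 120 min were nad6 (-1.94 ± 0.50) and ccb452 (-1.03 ± 0.22), beside 16.2% of all probe sets. What these mitochondrial probe sets pick up in cRNA made from poly(A) ends was not tested.

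A probe set with no listed gene, the unnamed one with the largest difference kept at all 3 times and singled out after its values were seen, was at 6.16 and 6.10 in fc1, against 9.36 and 9.33 in fc2 at 120 min, with 9.13 and 9.16 in wt. In the dark it was at 6.08 and 6.16 in fc1, against 7.94 and 7.98 in fc2, with 7.92 and 7.87 in wt. Its fc1 arrays were lower than those of the other genotypes at 0, 30 and 120 min. Its level changed by 0.01 ± 0.14 with 120 min of light in fc1 and by 1.39 ± 0.14 in fc2.

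AT5G26270, noted after its values were seen and lower in fc1 at all 3 times (-0.98, -1.13 and -1.42), lies 25 protein-coding genes from the FC1 locus AT5G26030 on chromosome 5 in the TAIR10.1 gene table. Of the 27 single-gene probe sets with 1 direction at all 3 times, the next nearest to FC1 on that chromosome was AT5G35940, 409 genes away, and the nearest to FC2 on chromosome 2 was MTP11, 976 genes away.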
